A study of Mus musculus with 8 samples.

Results

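The genes described here make cholesterol and fatty acids: 38 of the 19330 genes of the count table, picked by name for their place in these pathways. They fall into 19 genes of the cholesterol arm (17 enzymes from acetoacetyl-CoA to cholesterol and the sterol-binding proteins Stard4 and Tmem97), 14 genes of the fatty acid arm (cytosolic acetyl-CoA supply, palmitate synthesis, desaturation, elongation and acyl-CoA ligation) and 5 regulators of both arms. RNA-seq had been carried out on regulatory T cells (Tregs), made in culture out of splenic naive CD4+ T cells taken from B6 mice. The 4 Control libraries came from cells polarized for 3 days without oxPAPC, and the 4 oxPAPC libraries from cells polarized for the same time with oxPAPC, the oxidation products of the phospholipid PAPC, which carries an arachidonoyl chain. No other allele or agent separates the groups in the labels, and the sources used here state no dose, vehicle or age. Nothing in the labels ties a replicate to a mouse or culture of its own, and p-values therefore reflect the spread of these 8 libraries, which may be technical. All 38 genes had enough counts to be tested, with 119 to 24856 counts per gene and library.

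Cells build cholesterol from acetyl-CoA through mevalonate, squalene and lanosterol, and build fatty acids from the same acetyl-CoA through malonyl-CoA and palmitate. Transcription of both routes is driven by the sterol regulatory element-binding proteins (SREBPs), which the escort protein Scap carries out of the endoplasmic reticulum when sterols are low and which the Insig proteins hold back when sterols are high. In T cells the program is known to be switched on after activation, when growing cells need membrane, and the mevalonate route has been tied to Treg function.

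SREBPs bind sterol regulatory elements, usually beside sites for the partner factors NF-Y (CCAAT) and Sp1 (a GC box), so the promoters of members that are described below as lower, and of Hmgcs1 for comparison, are shown first. RefSeq promoter windows (GRCm38.p6, 250 bases before to 50 after a start) were found for 31 of the 38 genes, 40 windows in all. No window was found for Fdps, Fdft1, Sqle, Stard4, Scd1, Scd2 and Fads1, so their promoters were not searched. The letters TCACNCCAC of the sterol regulatory element, searched on both strands, were present in 1 of the 40 windows, that of Hmgcs1, and in 1.24% of all 32851 windows. CCAAT, searched on both strands, was in 26 of the 40 windows (65.0%) against 37.4% of all windows, and GGGCGG on either strand was in 30 of 40 (75.0%) against 35.7%. By gene, CCAAT occurred in 14 of 15 cholesterol arm genes, 7 of 11 fatty acid arm genes and 4 of 5 regulators with a window. The letters ATTGG and GGGCGG can share 2 bases where they meet. A match is a description of letters, not of a bound site. Only these exact letters were searched, so a window without a match may still hold a variant of an element. The 150 bases before the RefSeq start of 4 genes follow, 5′ to 3′, with TCACNCCAC and CCAAT (or its complement ATTGG) in capitals.
Acss2, chr2:155517893-155518042, forward strand: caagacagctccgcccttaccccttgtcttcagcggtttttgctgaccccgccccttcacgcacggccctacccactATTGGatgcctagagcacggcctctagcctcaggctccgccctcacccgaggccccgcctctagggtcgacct
Acsl3, chr1:78657675-78657824, forward strand: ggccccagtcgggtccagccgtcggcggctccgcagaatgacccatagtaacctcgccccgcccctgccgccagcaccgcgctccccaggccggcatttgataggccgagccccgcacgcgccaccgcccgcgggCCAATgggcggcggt
Elovl5, chr9:77917215-77917364, forward strand: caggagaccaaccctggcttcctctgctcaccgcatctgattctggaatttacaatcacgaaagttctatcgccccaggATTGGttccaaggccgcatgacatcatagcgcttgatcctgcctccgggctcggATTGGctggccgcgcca
Hmgcs1, chr13:119690201-119690350, forward strand: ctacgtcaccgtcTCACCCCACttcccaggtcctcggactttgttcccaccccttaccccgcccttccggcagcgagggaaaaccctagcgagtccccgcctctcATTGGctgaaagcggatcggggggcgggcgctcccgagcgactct
Within these stretches Acss2 and Acsl3 each had 1 CCAAT and 3 GC boxes, Elovl5 had 2 CCAAT and no GC box, and Hmgcs1 had the sterol element, 1 CCAAT and 2 GC boxes.

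In the quasi-likelihood test of edgeR, adjusted by Benjamini-Hochberg over 16434 genes, 3 of the 38 members passed an adjusted p of 0.05, all 3 of them lower with oxPAPC and all 3 in the fatty acid arm: Acss2, which makes acetyl-CoA from acetate, Acsl3, an acyl-CoA ligase of the endoplasmic reticulum and lipid droplets, and Elovl5, an elongase of polyunsaturated fatty acids. Among all genes tested, 13.3% passed in either direction, 6.75% as higher and 6.52% as lower, so the members' share of 7.89% was below the first and near the last and is no result about the list. None of the 19 cholesterol arm genes and none of the 5 regulators passed, while 6 and 1 of them had an unadjusted p under 0.05, against 27.5% of all genes. The median size of the log2 fold change, sign left aside, was 0.28 for the members and 0.28 for all genes tested.

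**Figure D1:**
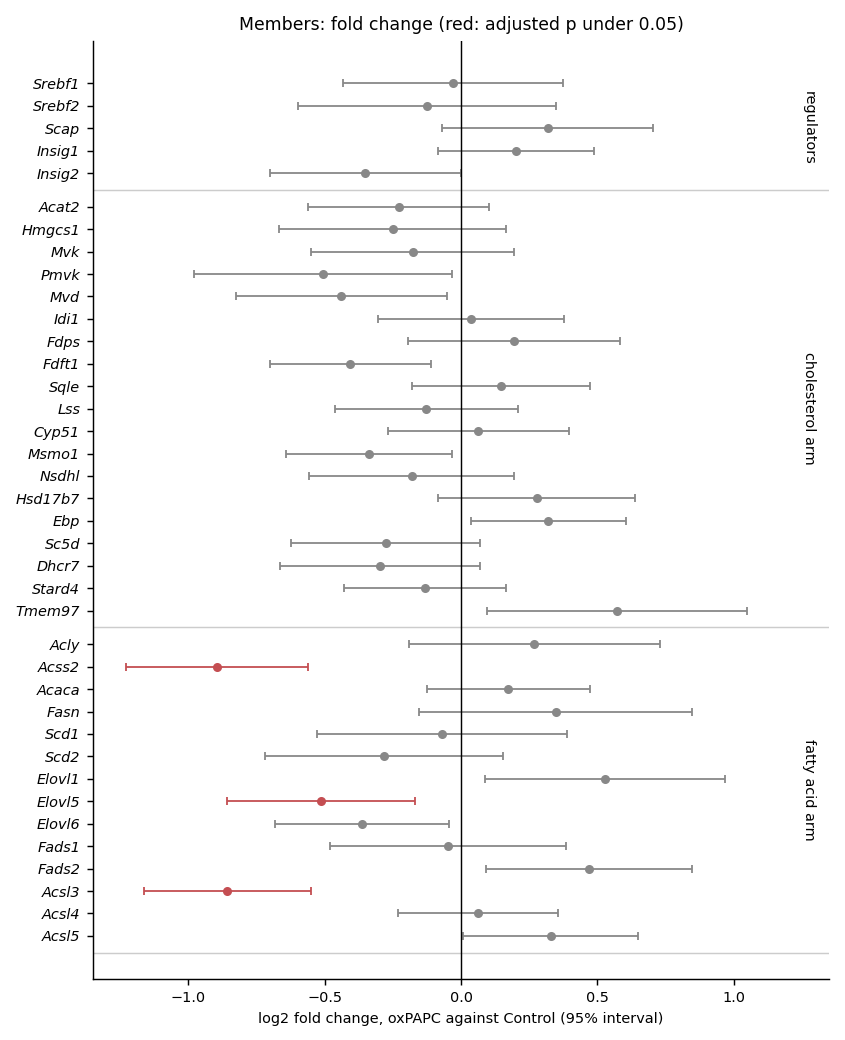
Log2 fold change of each of the 38 members, oxPAPC against Control, with its 95% interval from the quasi-likelihood fit (4 libraries a group), regulators at the top, cholesterol arm in the middle and fatty acid arm at the bottom. Acss2, Acsl3 and Elovl5 (red) had an adjusted p under 0.05, and the intervals of most other members include 0.

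Of all 38 members Acss2 (union of exons 10163 bases) had the lowest level per length in both groups and the most negative fold change. In CPM (counts scaled to a common library size with TMM factors) it measured 16.6, 18.7, 19.2 and 19.6 in Control replicates 1 to 4 and 8.88, 8.46, 12.0 and 10.3 in oxPAPC replicates 1 to 4. Every oxPAPC library lay below every Control library. The log2 fold change was -0.89 ± 0.16 (SE, adjusted p = 0.00193 by edgeR), a level 46.2% lower, and in the authors' deposited table it was -0.86 (adjusted p = 4.93e-05). In the annotation of the count table (GRCm38), Acss2 spans positions 155517948 to 155585724 of the forward strand of chromosome 2. This span begins inside the 150 bases printed above, which end at a later RefSeq start. Of its exon bases 9.12% overlap exons of 3 genes on the opposite strand, among them Gss. The sources used here do not state whether reads were counted by strand.

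Acsl3 measured 34.5, 39.7, 43.8 and 36.2 CPM in Control replicates 1 to 4 and 17.6, 20.1, 24.0 and 23.3 CPM in oxPAPC replicates 1 to 4. These groups did not overlap either. Acsl3 fell by 0.86 ± 0.14 on the log2 scale (SE, adjusted p = 0.00152 by edgeR), which is 44.8% lower, and the authors' deposited table gives -0.83 (adjusted p = 2.21e-05). Acsl3 lies on the forward strand of chromosome 1 between positions 78657825 and 78707743, where 5.60% of its exon bases are shared with Utp14b on the same strand. Acss2 and Acsl3 passed under all 16 alternative settings, with adjusted p up to 0.0283 and 0.0309.

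Elovl5 stood close to the threshold. It measured 64.5, 71.1, 87.8 and 70.6 CPM in Control replicates 1 to 4 and 44.5, 42.7, 64.7 and 53.7 CPM in oxPAPC replicates 1 to 4. The groups met at their edges, since oxPAPC replicate 3 was just above Control replicate 1. The log2 fold change was -0.51 ± 0.16 (SE, adjusted p = 0.0484 by edgeR). The call was kept under 5 of 16 alternatives and under 1 of the 8 that leave out a library, with the direction negative in all of them (log2 fold change -0.65 to -0.39, adjusted p 0.0137 to 0.305). The authors' deposited table gives -0.48 (adjusted p = 0.0562). Elovl5 lies on the forward strand of chromosome 9 between positions 77917364 and 77984519.

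**Figure D2:**
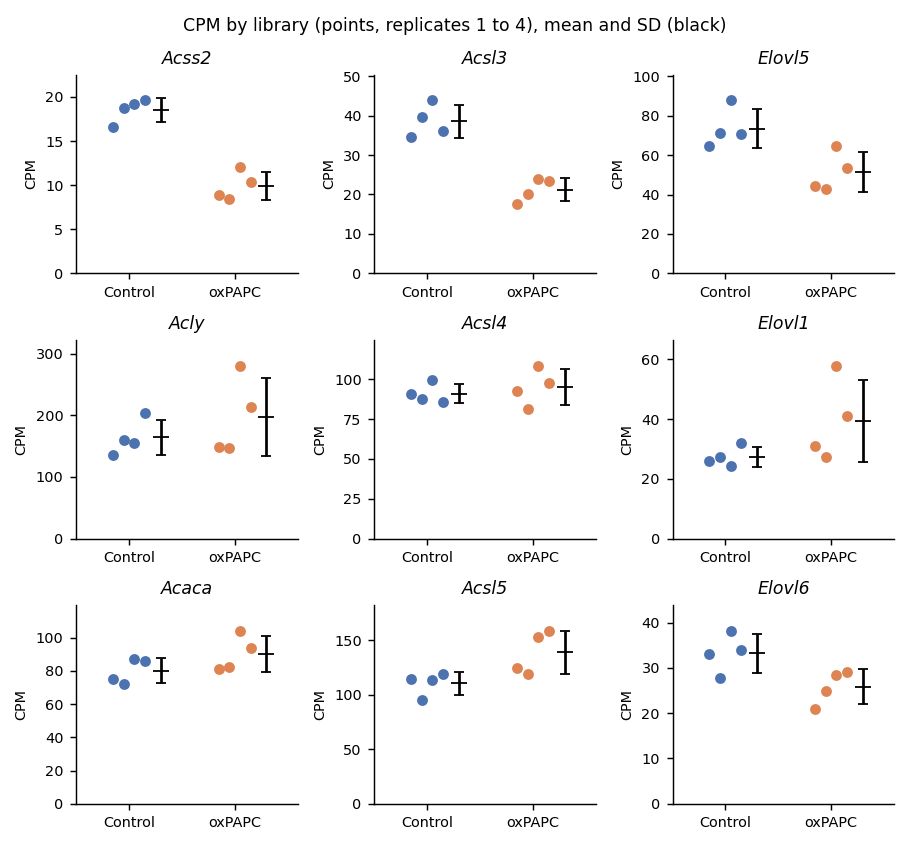
CPM of 9 fatty acid arm genes in each library, Control in blue and oxPAPC in orange, with the mean and SD of 4 libraries in black and each vertical axis starting at 0. The top row holds the 3 genes that passed, each with lower oxPAPC values. The rows under it hold other acetyl-CoA and palmitate enzymes, acyl-CoA ligases and elongases.

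The other acetyl-CoA and palmitate enzymes of the fatty acid arm had positive log2 fold changes that did not pass. Acly, which splits citrate into cytosolic acetyl-CoA, had 0.27 (95% interval -0.19 to 0.73), and Acaca, the carboxylase that makes malonyl-CoA, had 0.17 (-0.13 to 0.47). Fasn, the synthase that makes palmitate, measured 284, 389, 243 and 423 CPM in Control replicates 1 to 4 and 351, 340, 618 and 394 CPM in oxPAPC replicates 1 to 4. Only oxPAPC replicate 3 lay above the highest Control library. The log2 fold change of Fasn was 0.35 ± 0.23 (SE, adjusted p = 0.371 by edgeR), and without oxPAPC replicate 3 it was 0.11 (adjusted p = 0.77). Per length, Acly was at 31.1 ± 5.46 RPKM (CPM per kilobase of exon) in Control and 37.4 ± 12.0 in oxPAPC libraries (SD, n = 4 each), against 1.82 ± 0.133 and 0.976 ± 0.158 RPKM for Acss2. Acss2 thus made up 5.61 ± 0.590% of the summed RPKM of both acetyl-CoA sources in Control and 2.64 ± 0.392% in oxPAPC libraries (SD, n = 4 each), a share that does not depend on library scaling. The share does depend on the exon lengths used for RPKM.

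The desaturases Scd1 and Scd2, which make monounsaturated fatty acids, were the most abundant members per length. Scd2 measured 852, 1067, 959 and 1143 CPM in Control replicates 1 to 4 and 734, 639, 1060 and 868 CPM in oxPAPC replicates 1 to 4. The 2 groups overlapped, with a log2 fold change of -0.28 ± 0.20 (SE, adjusted p = 0.406 by edgeR). Scd1 had -0.07 (95% interval -0.53 to 0.39). Scd2 stood at 184 ± 23.2 RPKM in Control and 151 ± 33.4 RPKM in oxPAPC libraries (SD, n = 4 each), Scd1 at 77.4 ± 12.3 and 73.8 ± 22.2 RPKM. These are close paralogs, and the sources used here do not state how reads that fit both were counted. Among the desaturases of polyunsaturated fatty acids, Fads2 had a log2 fold change of 0.47 (95% interval 0.09 to 0.85, edgeR adjusted p = 0.0953) and Fads1 had -0.05 (-0.48 to 0.38).

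Of the 3 elongases Elovl5 alone passed. Elovl1, an elongase of saturated very long chains, measured 25.9, 27.2, 24.3 and 31.9 CPM in Control replicates 1 to 4 and 31.0, 27.2, 57.9 and 41.0 CPM in oxPAPC replicates 1 to 4. Its oxPAPC libraries spread widely, and replicates 1 and 2 lay within the Control range. Elovl1 had a log2 fold change of 0.53 ± 0.21 (SE, adjusted p = 0.110 by edgeR), which was 0.67 without oxPAPC replicate 2 (adjusted p = 0.0432) and 0.28 without oxPAPC replicate 3 (0.304), and it passed under 1 of the 8 fits with a library left out. Elovl6, which extends palmitate to stearate, had -0.36 (95% interval -0.68 to -0.04, edgeR adjusted p = 0.129). Within each library Elovl1 took 28.0 ± 3.91% of the summed RPKM of the 3 elongases in Control and 42.9 ± 4.05% in oxPAPC libraries, and Elovl5 took 57.7 ± 3.77% and 44.6 ± 2.33% (SD, n = 4 each). The highest Control share of Elovl1 was 31.6% and the lowest oxPAPC share 38.5%.

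Of the 3 acyl-CoA ligases, which activate free fatty acids, Acsl3 alone passed. Acsl5, a ligase of mitochondria and the endoplasmic reticulum, measured 115, 94.6, 113 and 119 CPM in Control replicates 1 to 4 and 124, 119, 153 and 158 CPM in oxPAPC replicates 1 to 4. Every oxPAPC library was above every Control library, replicate 2 by less than 1 CPM, and the log2 fold change was 0.33 ± 0.15 (SE, adjusted p = 0.171 by edgeR). Acsl4, which prefers arachidonic acid, had 0.06 (95% interval -0.23 to 0.36). Acsl3 took 18.3 ± 1.87% of the summed RPKM of the 3 ligases in Control and 9.58 ± 0.747% in oxPAPC libraries, Acsl5 took 46.8 ± 3.18% and 55.8 ± 1.6%, and Acsl4 held 34.9 ± 1.55% and 34.6 ± 1.88% (SD, n = 4 each). These shares describe libraries and were not tested, since the families were looked at with the fold changes known.

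**Figure D3:**
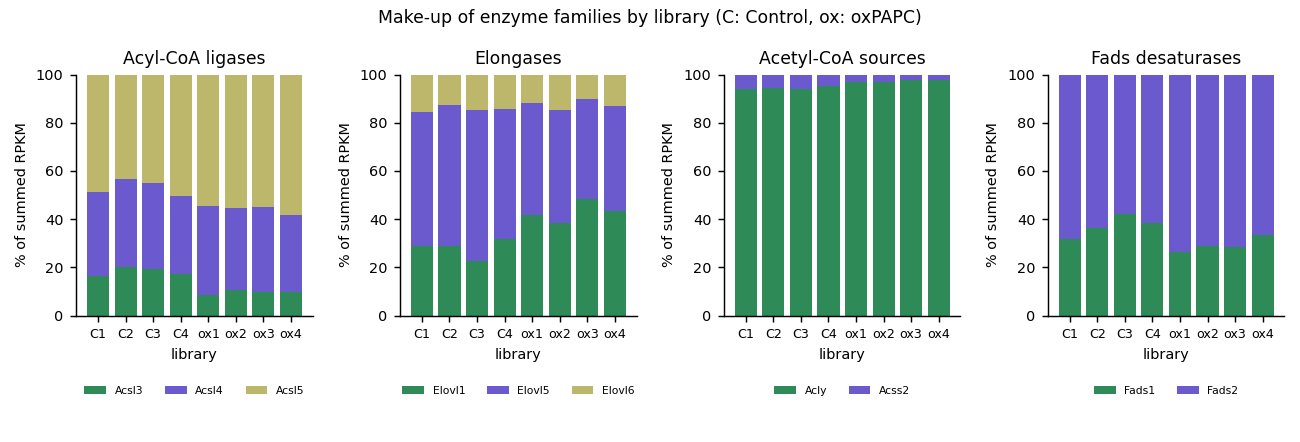
Share of the summed RPKM (%) that each gene takes of its family in each library, for 3 acyl-CoA ligases, 3 elongases, the 2 cytosolic acetyl-CoA sources and the 2 Fads desaturases. The Acsl3 share was 16.4% to 20.3% in Control and 8.63% to 10.5% in oxPAPC libraries.

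In the cholesterol arm 12 genes had negative and 7 had positive log2 fold changes, from -0.51 to 0.57, and none passed. In the early part, from acetyl-CoA to squalene, 6 of 8 were negative. Hmgcs1, which makes HMG-CoA and whose promoter carries the sterol element shown above, measured 120, 157, 151 and 159 CPM in Control replicates 1 to 4 and 93.3, 96.9, 169 and 134 CPM in oxPAPC replicates 1 to 4. Replicate 3 of oxPAPC was the highest of the 8 libraries and replicates 1 and 2 the lowest, and the log2 fold change was -0.25 (95% interval -0.67 to 0.17). Pmvk, the kinase that makes mevalonate pyrophosphate, measured 57.7, 77.9, 35.8 and 64.7 CPM in Control and 44.3, 34.4, 54.1 and 32.9 CPM in oxPAPC replicates 1 to 4. Control replicate 3 lay within the oxPAPC range, and Pmvk had a log2 fold change of -0.51 ± 0.22 (SE, adjusted p = 0.151 by edgeR). Without Control replicate 3 it passed (-0.69, adjusted p = 0.0242), and without Control replicate 2 it was -0.35 (0.385). None of the other fits with a library left out passed.

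Fdft1, squalene synthase, which commits farnesyl pyrophosphate to sterols, came nearest to the threshold in this arm. It measured 93.4, 101, 82.9 and 102 CPM in Control replicates 1 to 4 and 63.1, 67.5, 81.6 and 73.9 CPM in oxPAPC replicates 1 to 4. The groups did not overlap, with oxPAPC replicate 3 just under Control replicate 3. Its log2 fold change was -0.41 ± 0.14 (SE, adjusted p = 0.0684 by edgeR), and it passed under 4 of 16 alternatives, among them without oxPAPC replicate 3 (0.0400) and without Control replicate 3 (0.0452). Exons of Ctsb on the opposite strand overlap 18.3% of the exon bases of Fdft1, and counting by strand is not stated. Opposite-strand exons also overlap 13.2% of the exon bases of Scap and 12.1% of those of Hmgcs1. Mvd, the decarboxylase that makes isopentenyl pyrophosphate, had -0.44 (95% interval -0.83 to -0.05, edgeR adjusted p = 0.130) and passed without oxPAPC replicate 3 (0.0478) but under no other fit with a library left out. Acat2, the cytosolic thiolase, and Mvk, mevalonate kinase, had log2 fold changes of -0.23 and -0.18. Idi1, the isomerase of isopentenyl pyrophosphate, had 0.04, and Fdps, farnesyl pyrophosphate synthase, had 0.20. Fdps was also far lower per length than its pathway neighbours, at 2.30 ± 0.390 RPKM in Control libraries (SD, n = 4). Gm43738 shares 26.7% of the exon bases of Fdps on the same strand. Whether this overlap changed how reads were assigned was not tested.

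Of the 9 enzymes that turn squalene into cholesterol, 5 were negative and 4 positive. Cyp51, the lanosterol demethylase, measured 203, 233, 186 and 223 CPM in Control replicates 1 to 4 and 240, 192, 249 and 202 CPM in oxPAPC replicates 1 to 4. The groups overlapped over most of their range, and the 95% interval of its log2 fold change of 0.06 ran from -0.27 to 0.39. Msmo1, the sterol C4 methyl oxidase, measured 137, 137, 114 and 109 CPM in Control and 110, 93.2, 100 and 89.4 CPM in oxPAPC replicates 1 to 4. Only oxPAPC replicate 1 lay inside the Control range, and the log2 fold change was -0.34 (95% interval -0.64 to -0.03, edgeR adjusted p = 0.139). Ebp, the sterol isomerase, lay higher in every oxPAPC library (30.1 to 37.7 CPM) than in any Control library (23.6 to 29.9 CPM), with 0.32 ± 0.13 (SE, adjusted p = 0.131 by edgeR). Sqle, squalene epoxidase, had a log2 fold change of 0.15 and Hsd17b7, the sterol ketoreductase, 0.28. Lss, lanosterol synthase, and Nsdhl, the sterol dehydrogenase that acts with Msmo1, had -0.13 and -0.18. Sc5d, the sterol desaturase, and Dhcr7, the reductase of the last step, had -0.28 and -0.30.

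Both sterol-binding proteins of this arm missed the threshold. Tmem97, the sigma-2 receptor of the endoplasmic reticulum, measured 23.5, 19.4, 23.2 and 24.5 CPM in Control replicates 1 to 4 and 29.2, 18.6, 43.9 and 42.9 CPM in oxPAPC replicates 1 to 4. Replicate 2 of oxPAPC was the lowest of all 8 libraries while the other oxPAPC libraries were the highest. Its log2 fold change of 0.57 ± 0.22 (SE, adjusted p = 0.107 by edgeR) passed without oxPAPC replicate 2 (0.77, adjusted p = 0.0114) but under no other fit with a library left out, with values down to 0.42 (0.242) without oxPAPC replicate 3. Stard4, a cytosolic sterol carrier on chromosome 18, measured 103, 125, 96.3 and 111 CPM in Control and 102, 88.4, 108 and 99.1 CPM in oxPAPC replicates 1 to 4. Its groups overlapped, with a log2 fold change of -0.13 (95% interval -0.43 to 0.17).

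None of the 5 regulators passed, and their intervals were wide. Srebf2, the SREBP of cholesterol genes, measured 356, 514, 329 and 512 CPM in Control replicates 1 to 4 and 343, 317, 551 and 358 CPM in oxPAPC replicates 1 to 4. Its log2 fold change of -0.12 had a 95% interval from -0.60 to 0.35, and that of Srebf1, the SREBP of fatty acid genes, was -0.03 (-0.43 to 0.37). With library size scaling both turned positive, to 0.036 and 0.13. Per length Srebf2 stood above Srebf1, at 59.5 ± 13.8 against 33.0 ± 6.89 RPKM in Control libraries (SD, n = 4 each), and Srebf2 was the higher in each of the 8 libraries. Scap had 0.32 (-0.07 to 0.70). Insig2, the less sterol-responsive of the anchors, measured 17.6, 17.5, 19.1 and 15.7 CPM in Control and 10.7, 14.3, 12.6 and 17.1 CPM in oxPAPC replicates 1 to 4. Only oxPAPC replicate 4 was inside the Control range, and the log2 fold change was -0.35 ± 0.16 (SE, adjusted p = 0.180 by edgeR). Insig1, itself an SREBP target, was at 133 to 147 CPM in Control and 153 to 178 CPM in oxPAPC libraries without overlap, with 0.20 ± 0.13 (SE, adjusted p = 0.364 by edgeR). In all, 6 of the 38 members did not overlap between the groups, 3 lower (Acss2, Acsl3, Fdft1) and 3 higher (Insig1, Ebp, Acsl5), against 9.86% lower and 9.50% higher of all genes tested.

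Side by side, the cholesterol arm had a median log2 fold change of -0.18 with 0 of 19 genes passing. The fatty acid arm had a median of 0.01 with 3 of 14 passing, all lower. The median of all genes tested was -0.01, and 13.3% of them passed, 6.52% as lower. Under the 16 alternatives 0 to 2 cholesterol arm genes and 2 to 5 fatty acid arm genes passed. Neither arm's median was stable in size, though that of the cholesterol arm stayed negative under all 16 alternatives (-0.28 to -0.02). With a library left out, that of the cholesterol arm ran from -0.28 (without oxPAPC replicate 3) to -0.08 (without oxPAPC replicate 2), and that of the fatty acid arm from -0.10 to 0.10 (without the same libraries). With library size scaling they were -0.02 and 0.14, where the median of all genes was 0.12. The median of the cholesterol arm minus that of the fatty acid arm was -0.18, and -0.22 to -0.12 under the 16 alternatives. Over their means the arms differed less: relative to the Control libraries, the mean log2 CPM of the oxPAPC libraries was -0.10 ± 0.20 for the cholesterol arm and -0.08 ± 0.30 for the fatty acid arm (SD, n = 4 each). The single values of the 4 oxPAPC libraries were -0.16, -0.32, 0.15 and -0.08 for the cholesterol arm and -0.30, -0.34, 0.29 and 0.03 for the fatty acid arm, in the order of the replicates. Among the oxPAPC libraries both arms were highest in replicate 3 and lowest in replicate 2, while among the Control libraries the lowest was replicate 3 for the cholesterol arm and replicate 1 for the fatty acid arm. The mean of the cholesterol arm minus that of the fatty acid arm, again relative to Control, was -0.02 ± 0.13 in oxPAPC libraries, against an SD of 0.10 in Control libraries (n = 4 each), and the groups overlapped. The difference between the arms was not tested, since the genes were chosen with earlier results known.

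The spread between libraries was shared by most members. Among the oxPAPC libraries, replicate 3 had the highest CPM in 30 of 38 members (78.9%), against 33.9% of all genes tested, and replicate 2 had the lowest in 25 of 38, against 23.9%. Among Control libraries replicate 4 was highest in 19 of 38, against 23.5% of all genes, and replicate 3 lowest in 17 of 38, against 31.8%. Over the deviations of the 8 libraries from their group means, the mean pairwise Pearson correlation was 0.70 within the fatty acid arm, 0.35 within the cholesterol arm and 0.43 between the arms, against 0.00092 over all pairs of genes tested. These points share libraries, depth and scaling, and the values are a description across genes. Pairs of opposite sign cancel in the mean over all genes, so that mean is no yardstick for a list. With an added correction for the GC content and length of transcripts, chosen after the data were seen, they were 0.76 within the fatty acid arm and 0.44 within the cholesterol arm, and replicate 3 was still highest in 30 of 38. With that correction Fasn (log2 fold change 0.54, edgeR adjusted p = 0.0321), Scap (0.42, 0.0251) and Fads2 (0.48, 0.0227) passed as higher and Mvd (-0.43, 0.0246) and Fdft1 (-0.40, 0.0198) as lower, beside Acss2, Acsl3 and Elovl5. Of all genes tested 3222 of 16410 passed with it, near the members' share, so these calls are no result about the list. Without oxPAPC replicate 3, 5 members passed, all lower: Acss2, Acsl3, Elovl5, Fdft1 and Mvd. In that fit 2134 of all 16797 genes tested passed, 46.4% of them as higher, and the members' count was not tested against this.

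**Figure D4:**
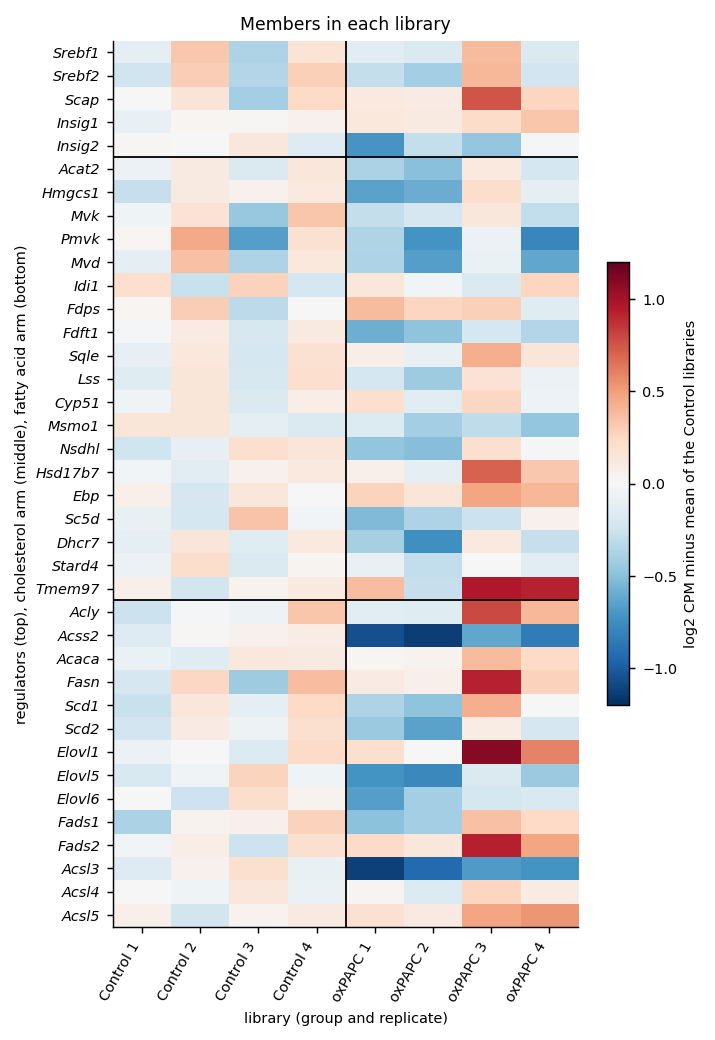
Log2 CPM of each of the 38 members (rows) in each of the 8 libraries (columns), minus the mean of the Control libraries, with red higher and blue lower. The column of oxPAPC replicate 3 holds the highest value of its group in 30 rows, and the rows of Acss2 and Acsl3 are blue in all 4 oxPAPC libraries.

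Other genes of these pathways, listed by function, are given with the shares of all genes tested that passed, 6.75% higher and 6.52% lower. Among 17 tested further fatty acid genes 2 fell and 3 rose. Acss1, the mitochondrial acetyl-CoA synthetase, fell by 1.40 ± 0.24 on the log2 scale (SE, adjusted p = 0.00169 by edgeR), from 7.85, 14.3, 8.09 and 10.3 CPM in Control to 3.06, 4.56, 4.41 and 3.14 CPM in oxPAPC replicates 1 to 4. The groups of this sister enzyme of Acss2 did not overlap. Acacb, the acetyl-CoA carboxylase of the outer mitochondrial membrane, fell by 1.29 ± 0.24 (SE, adjusted p = 0.00274 by edgeR), from 5.85, 8.60, 6.12 and 10.2 CPM to 2.61, 2.91, 3.79 and 3.14 CPM, also without overlap, while Acaca had 0.17. Acsl6, a further acyl-CoA ligase, rose by 1.11 ± 0.22 (SE, adjusted p = 0.00530 by edgeR), from 10.6, 5.51, 7.40 and 12.1 CPM to 21.6, 14.7, 21.05 and 19.7 CPM. Hsd17b12 of the elongation cycle rose by 0.54 and Mecr of mitochondrial fatty acid synthesis rose by 0.59 (edgeR adjusted p = 0.0269 and 0.0232), and both calls were lost without Control replicate 2 or oxPAPC replicate 4, among others. Hacd3, the most abundant of this list in CPM, had -0.13.

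The 5 lists had median log2 fold changes of -0.10 (SREBP processing), 0.13 (sterols and isoprenoids), 0.05 (further fatty acid genes), -0.14 (sterol storage and transport) and -0.29 (fatty acid oxidation), against -0.01 for all genes tested. Of 11 genes that process SREBPs or act beside them 2 fell, against 6.52% of all genes. Lpin1, a phosphatidate phosphatase that is also an SREBP target, fell by 0.62 ± 0.13 (SE, adjusted p = 0.00546 by edgeR), from 83.0 ± 7.54 to 54.0 ± 1.94 CPM (SD, n = 4 each). Sec24a, of the vesicle coat that carries Scap and SREBP, fell by 0.49 (edgeR adjusted p = 0.0205), a call lost without oxPAPC replicate 1 or 4. Among 13 further sterol and isoprenoid genes only Fntb, the farnesyltransferase beta subunit, passed, with -0.52 (edgeR adjusted p = 0.0160, and over 0.05 when replicate 2 or 4 of Control or 1 or 4 of oxPAPC was left out), and Lbr, a sterol reductase of the nuclear envelope, had -0.03.

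Of 15 genes of sterol storage and transport 2 rose and 2 fell, against 6.75% and 6.52% of all genes. Npc2, which moves cholesterol out of lysosomes, fell by 0.61 ± 0.14 (SE, adjusted p = 0.0106 by edgeR), from 232 ± 17.5 to 152 ± 7.67 CPM (SD, n = 4 each). Gramd1b, which moves plasma membrane cholesterol to the endoplasmic reticulum, rose by 0.64 ± 0.13 (SE, adjusted p = 0.00469 by edgeR), from 62.8 ± 3.60 to 97.8 ± 7.13 CPM (SD, n = 4 each), and Gramd1a had -0.12. Lpcat3, which puts polyunsaturated chains into phospholipids, rose by 0.52 (edgeR adjusted p = 0.0182, lost without Control replicate 2), and the sterol exporter Abcg1 fell by 0.69 (edgeR adjusted p = 0.00880). Of 18 genes of fatty acid oxidation 3 fell and none rose: Hadh by 0.62, Decr1 by 0.45 and Hadhb by 0.41 (edgeR adjusted p = 0.00581, 0.0311 and 0.0474), against 6.52% of all genes lower. The call of Hadhb was lost without any of 7 of the 8 libraries and that of Decr1 without any of 5. Acads, the most abundant of this list in CPM, had -0.51 (edgeR adjusted p = 0.0721). With library size scaling, 9 of these calls were lost with the direction kept. The adjusted p by edgeR was then 0.0939 for Lpin1 and 0.266 for Sec24a, 0.206 for Fntb, 0.0588 for Hsd17b12, 0.116 for Npc2 and 0.0828 for Abcg1. For the fatty acid oxidation genes it was 0.0979 for Hadh, 0.332 for Decr1 and 0.364 for Hadhb, so no call was left in that list or in SREBP processing.

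Defining markers of the labelled cell type were present in every library, among them Cd3e, Cd4, Foxp3, Il2ra and Ctla4. The 7 Treg markers summed to 1355 to 1716 CPM in Control and 1489 to 2086 CPM in oxPAPC libraries, the 5 T cell markers to 1390 to 1640 and 1248 to 1431 CPM, and none of them passed the test. Each library is bulk RNA, so fewer cells of a type and less RNA per cell cannot be told apart. Markers of other cells moved with the groups at low levels. Of 6 B lineage markers 3 rose. Another 1 had a negative log2 fold change (-0.58) that did not pass, with every oxPAPC library below every Control library. The summed CPM of the 6 was 10.4 to 15.2 in Control and 16.0 to 19.4 in oxPAPC libraries. That of macrophage and dendritic markers, 7 of 8 in the table, was 4.07 to 4.98 and 10.4 to 12.3, with 2 of 5 tested higher (Mpeg1 and Flt3) and Itgax at 0 counts in at least 1 library. That of CD8 and natural killer markers, 3 of 5 in the table, was 7.25 to 10.2 and 11.6 to 19.4, with Cd8a higher. Cd79a had 2.57 to 5.58 CPM in Control and 3.28 to 4.92 CPM in oxPAPC libraries, and Lyz2 was at 0.830 CPM or less in Control and 0.970 CPM or less in oxPAPC libraries. Their part in the values above was not tested. The library totals ran from 14017583 to 21619731 counts.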

How the data were processed

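The 8 RNA-seq libraries were made from total RNA after poly(A) selection, per the labels' protocols. STAR 2.7.8a and featureCounts 2.0.2, the build GRCm38.p6 and DESeq2 1.30.1 appear in the submitters' processing notes. The authors deposited whole-number counts per gene, not normalized, and no gene listed there falls short of 5 counts in 2 libraries. The same deposited table holds the authors' mean normalized signal, log2 fold changes, ratio (fold change), Wald score and both raw and adjusted p-values, per the file headers. Here the counts were scaled by TMM, low genes were removed with filterByExpr and groups were compared with edgeR 4.0.16 in R 4.3.3, with Benjamini-Hochberg adjustment over all 16434 genes tested and a threshold of 0.05. SE was taken from the fold change and its F statistic, and 95% intervals use the fit's degrees of freedom. RPKM divides scaled CPM by the union of GENCODE M21 exons. Of the identifiers, 99.1% had the same gene coordinates in M21 as in the count table. Log2 CPM used a prior count of 2.

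The members, lists and tests were chosen with earlier results of these data known. All members were accounted for. Values in every library were given for members past the threshold and, in each role group (desaturases with elongases), for the member with the highest mean CPM and the one with the largest fold change, and for Fdft1, chosen after its values were seen. Of other lists, up to 6 genes past the threshold and the most abundant in CPM were named (some genes are not reported here), and Insig1, Ebp and marker genes were added as examples. Alternatives were RLE and library size scaling, testing unfiltered genes or those averaging 5 CPM or more, DESeq2 1.42.0, voom of limma 3.58.1, the replicate number as a block, leaving out each library and, added after seeing the data, a GC and length offset (loess span 0.5, 16410 genes). The test was checked on simulated data. Counts limit precision by depth, and errors are between libraries.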

Additional observations from a re-analysis of the deposited data

Results flagged for a closer look

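Of 114 sets of 4 CPM values (1 gene in 1 group), 4 held a library that stood far from the other 3. Chance alone sets apart about 1 in 20 such groups, or 5.7 here. Srebf1 had 236.8 CPM in oxPAPC replicate 3, against 161 to 167 CPM in the other oxPAPC libraries. Abcg1 stood at 49.4 CPM in oxPAPC replicate 3, where the other 3 were at 35.9 to 36.8. Npc2 had 140.6 CPM in oxPAPC replicate 2, against 154 to 157. Hadhb had 60.6 CPM in Control replicate 2, against 50.9 to 52.3.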

How the results depend on the processing

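Of the 38 members, Acss2 and Acsl3 passed under all 16 alternatives, 27 that did not pass here passed under none, and 30 kept the sign of their log2 fold change throughout. With library size scaling the log2 fold change turned to 0.133 for Srebf1, 0.0364 for Srebf2, 0.0196 for Lss, 0.015 for Stard4, 0.0803 for Scd1, 0.0897 for Fads1, 0.00324 for Hacd3, 0.11 for Lbr and 0.025 for Gramd1a, and the median of all genes moved to 0.12, with 71.6% of calls higher against 50.9%. The offset for GC content and length, chosen after seeing the data, turned Srebf1 to 0.06748 and called 2 cholesterol arm genes, 5 fatty acid arm genes and 1 regulator. It called 3222 of all 16410 genes tested. The filter at 5 CPM, which tests fewer genes, called 1 cholesterol arm gene, Fdft1, with 1882 of 10277 genes called in all. With one library left out, which leaves fewer samples, 1390 to 2134 genes passed, with 1390 without Control replicate 2, and 0 to 2 of the cholesterol arm. Signs also turned with a library left out for Srebf1 (-0.185 to 0.0845), Idi1 (-0.0486 to 0.134), Scd1 (-0.279 to 0.0516), Fads1 (-0.201 to 0.0784), Acsl4 (-0.00753 to 0.132) and Lbr (-0.0992 to 0.0223). The replicate block called 1453 of all genes and the same 3 members. Among other named genes, Sec24a, Fntb, Hadhb, Decr1, Hsd17b12, Mecr and Lpcat3 did not pass with the block. Deviations of the Control and oxPAPC library of 1 number correlated at 0.32, -0.053, -0.37 and -0.035, with 2 of 8 libraries closest to their namesake, and no pairing was assumed. Causes of these shifts were not tested beyond the fewer genes or samples named.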
